A study of Mus musculus with 9 samples.

Results

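A set of 10 genes of oligodendrocyte differentiation and myelin was read in mouse brain tumour cells that overexpress Foxr2 and in astroglia: Myrf, Cldn11, Cnp, Enpp6, Opalin, Aspa, Mbp, Mobp, Gpr17 and Gjc3. They were chosen by name, as the rows of the deposited table whose RefSeq accession maps to one of these symbols, with rows of the same symbol added. All 10 were found among 14771 named genes, and all 10 passed the filter on low values (10 normalized reads in at least 3 libraries), which 10576 genes passed. RNA from cells was sequenced in 9 libraries, 3 in each of 3 groups. The astroglia (AG) were brain cells of strain C57BL/6 with the genotype label p53 DN, Nf1 shRNA. Brainstem (BS) and olfactory bulb (OB) tumour cells came from a 129;C57BL/6 mix with Foxr2 overexpression and p53 cko. All 3 groups thus carry a change of p53, labelled DN in AG and cko in the tumours. Tumour, strain and genotype changed at once against AG, and their effects cannot be told apart. No label used here gives an age, a promoter for Foxr2 or the origin of each library (separate animals or repeat cultures), and p-values measure only the spread between these libraries, which may be technical.

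As background, oligodendrocytes arise from precursor cells that carry Olig2, Cspg4 and Pdgfra, leave the cell cycle, pass through a premyelinating stage marked by Gpr17, Bcas1 and Enpp6, and then wrap axons with myelin. Sox10 switches on Myrf, a membrane-bound transcription factor, and both drive the genes of the myelin sheath. Mature cells make myelin basic protein (Mbp), the phosphodiesterase Cnp, the tight junction claudin Cldn11, Mobp, the membrane glycoprotein Opalin and the enzyme Aspa, which splits N-acetylaspartate.

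The libraries held 11300273 to 19868282 reads. Values are normalized reads, that is, reads divided by the authors' size factor, and every difference is a difference of log2(normalized reads + 1). Adding 1 makes changes of low genes look smaller. A gene was called changed at a limma adjusted p under 0.05 over all 10576 genes. The genotype gene Foxr2 had 0, 0.986 and 0 normalized reads in AG_1, AG_2 and AG_3, against 7377 to 12567 in BS and 4505 to 6814 in OB. For many genes read here OB_257 or BS_287 held the highest or the lowest value of the tumour libraries. Values without them, and some without other libraries, are given beside the results they move. Of 7 astrocyte markers read, Gja1 (4961 to 5396) and Slc1a3 (753 to 855) were well above background in AG. S100b was lower (25.0 to 27.2), and Gfap (0.834 to 3.27), Aqp4 (1.09 to 1.97), Aldh1l1 (at most 5.91) and Aldoc (at most 1.09) were near 0. S100b and Aldoc were called higher in OB than in AG. S100b has 1 annotated RefSeq transcript, and the markers near 0 each have more than 1. For Gfap and Aldoc both annotated transcripts have a row here. Genes with several transcripts tended to have low values, with a median row mean of 258.6 where 1 transcript is annotated and 12.57 where 2 are, so that levels are compared between libraries and not between genes. In bulk RNA, fewer cells of a type and less RNA per cell cannot be told apart.

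OB cells had much more RNA of 7 of the 10 genes than AG, and less of 1. Gpr17, Enpp6, Myrf, Gjc3, Cldn11, Cnp and Opalin rose, Aspa fell, and Mbp and Mobp did not pass the test. Of all genes 34.9% were called, 16% higher and 19% lower. All 3 OB libraries lay above all 3 AG libraries for 9 of the 10 genes and below for 1, which held for 27.5% and 30.8% of all genes. The median difference of the 10 genes was 7.24, against -0.01 over all genes tested. In BS 2 of the 10, Myrf and Cldn11, rose against AG and Aspa fell, where 35.1% of all genes were called, 15.6% higher and 19.5% lower. All BS libraries lay above AG for 4 genes (Myrf, Cldn11, Cnp and Enpp6) and below for 1, against 26.7% and 31.8% of all genes. The median difference was 3.43 in BS, against -0.03 over all genes. Both comparisons share the AG libraries. The count in OB was 6 without OB_257, where 3742 of all genes were called, against 3695 with all libraries. It was 5 without AG_1, AG_2 or AG_3, each left out alone, where 2502 to 2532 of all genes were called. In BS the count was 6 without BS_287 (3577 of all genes) and 5 without OB_287 (3891), against 3712 of all genes with all libraries. By edgeR it was 6 (3679 of all genes) and by DESeq2 8 (4270).

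**Figure D1:**
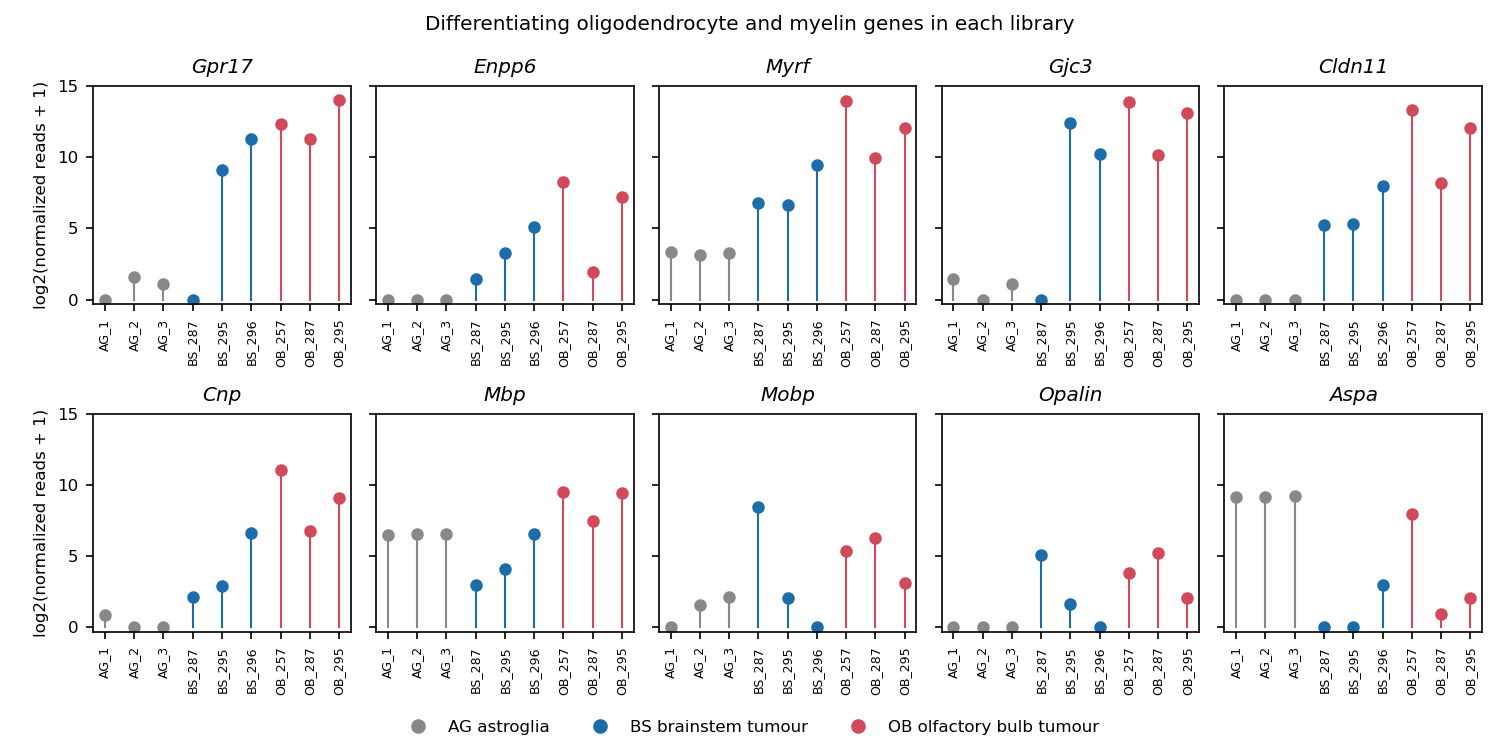
Level of each of the 10 genes in each of the 9 libraries, as log2(normalized reads + 1). Each point is 1 library, coloured by group (AG grey, BS blue, OB red), and Gpr17, Gjc3, Myrf, Cldn11 and Cnp are near the bottom in AG and highest in OB_257 or OB_295, while Aspa is highest in AG.

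Myrf, the regulator that opens the myelin programme, was low but measurable in AG, with 9.17, 7.88 and 8.71 normalized reads in AG_1, AG_2 and AG_3. It stood at 112, 97.1 and 687 in BS_287, BS_295 and BS_296. In OB_257, OB_287 and OB_295 it reached 15866, 993 and 4296. The 3 groups did not overlap, and the spread within OB was wide, with OB_257 highest and OB_287 lowest. The difference from AG was 8.73 ± 1.03 (SE) in OB (limma adjusted p = 0.000342) and 4.36 ± 1.03 in BS (limma adjusted p = 0.0117). Without OB_257 the OB difference was 7.75 (limma adjusted p = 0.000571).

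Sox10 and Zfp488, a zinc-finger factor of oligodendrocyte differentiation, were, like Myrf, highest in OB_257 and OB_295, while Olig2 was not. Sox10 had 3.35, 29.9 and 1511 normalized reads in BS_287, BS_295 and BS_296 and 30528, 1808 and 13223 in OB_257, OB_287 and OB_295. Zfp488 had 0, 121 and 374 in BS and 2092, 334 and 3232 in OB, in the same order of libraries. Olig2, a factor that precursors already carry, was 13399, 25104 and 30963 in BS and 2352, 17149 and 16921 in OB. OB_257, the library with the most Sox10 and Myrf, thus had the least Olig2 of the 6.

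Gpr17, a receptor of the premyelinating stage, had 3 reads in all 3 AG libraries together. Its normalized reads were 0 in BS_287, 558 in BS_295 and 2466 in BS_296, and 5076 in OB_257, 2471 in OB_287 and 16883 in OB_295. The ratio of OB to AG was 8251 (95% counting interval 2823 to 40012), and the log2 difference of 11.66 ± 2.47 passed (limma adjusted p = 0.00704). In BS the ratio was 1005 (343 to 4875), with a log2 difference of 5.92 ± 2.47 that did not pass (limma adjusted p = 0.0958). Without BS_287 the BS difference passed, at 9.32 (limma adjusted p = 0.000302). With all libraries it passed by edgeR (adjusted p = 0.0173) and by DESeq2 (adjusted p = 4.61e-05).

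Enpp6, a choline phosphodiesterase of newly forming oligodendrocytes, had 0 reads in AG. It had 1.68, 8.53 and 33.5 normalized reads in BS_287, BS_295 and BS_296, and 309 in OB_257, 2.85 in OB_287 and 145 in OB_295. OB_287 lay within the BS range. AG was set to 3 reads in each library, a mean of 2.91 normalized reads. Against this floor the mean of Enpp6 was at least 52.4-fold higher in OB and at least 5.01-fold higher in BS. OB_287 and BS_287 themselves lay below the floor. The log2 differences were 5.80 ± 1.56 in OB (limma adjusted p = 0.0202) and 3.26 ± 1.56 in BS (limma adjusted p = 0.138). The OB call ended without AG_1, AG_2, AG_3, OB_257 or OB_295, with adjusted p up to 0.0663 over all alternatives. Leaving out an AG library kept the difference at 5.80, so that only the error estimate of the shared fit changed. The difference was 4.57 without OB_257 and 5.11 without OB_295. The BS difference passed in 4 of 21 alternatives. These were DESeq2 (adjusted p = 0.00271), a fit of the compared groups only, and the fits without OB_287 or without BS_287 and OB_257 together.

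Gjc3, a connexin of oligodendrocytes and Schwann cells, also had 3 reads in AG in all. Its normalized reads were 0 in BS_287, 5394 in BS_295 and 1219 in BS_296, against 14685 in OB_257, 1142 in OB_287 and 8887 in OB_295. BS_295, which had little Myrf, thus had more Gjc3 than OB_287. The ratio to AG was 8229 (95% counting interval 2815 to 39905) in OB and 2089 (715 to 10134) in BS. The log2 differences were 11.55 ± 2.76 in OB (limma adjusted p = 0.0124) and 6.72 ± 2.76 in BS (limma adjusted p = 0.092). Without BS_287 the BS difference was 10.50 (limma adjusted p = 0.00041), and with all libraries it passed by edgeR (adjusted p = 0.0167) and DESeq2 (adjusted p = 9.56e-06).

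Cldn11, which seals the layers of the myelin sheath, had 0 reads in AG and was highest in the same libraries as Myrf. It had 36.1, 39.5 and 250.2 normalized reads in BS_287, BS_295 and BS_296, and 10013, 290.3 and 4243 in OB_257, OB_287 and OB_295. All 6 tumour libraries were above AG and the OB libraries above the BS libraries. By group means Cldn11 was at least 1667-fold higher in OB and at least 37.3-fold higher in BS. Both log2 differences passed (limma adjusted p = 0.000264 in OB and 0.00585 in BS). Its OB log2 difference was 11.18, and 10.12 without OB_257 (limma adjusted p = 0.000578). Cnp, an enzyme of uncompacted myelin, had 1 read in AG. Its normalized reads were 3.35, 6.4 and 99.5 in the BS libraries and 2093, 108 and 547 in the OB libraries, in the same order. The ratio to AG was 2735 (95% counting interval 490.4 to 108071) in OB, where Cnp passed (limma adjusted p = 0.00139), and 111 (19.4 to 4406) in BS, where it did not (limma adjusted p = 0.0662). Its OB log2 difference was 8.68, and 7.64 without OB_257 (limma adjusted p = 0.00341). Cnp passed in BS without BS_287 (limma adjusted p = 0.0425), without OB_257 or without OB_287, by edgeR and DESeq2, and with a pseudocount of 0.5. Nearly all Cnp reads fell on 1 of its 2 transcript rows.

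Mbp needs care, since its row is not the transcript that myelin is made from. The row is 1 of 8 annotated RefSeq transcripts of Mbp, and the other 7 were not analysed here. In the GENCODE annotation this transcript starts 79.3 kb upstream of the nearest of the 12 Mbp transcripts that start downstream, which places it in the upstream (golli) group of the gene. It had 88.4, 93.6 and 91.5 normalized reads in AG_1, AG_2 and AG_3, 6.71, 16 and 94.6 in BS_287, BS_295 and BS_296, and 732, 179 and 686 in OB_257, OB_287 and OB_295. The OB libraries were above both other groups. The differences were 2.28 ± 0.90 in OB (limma adjusted p = 0.079) and -1.99 ± 0.90 in BS (limma adjusted p = 0.119), and neither passed. The OB difference passed without BS_287, without BS_296 and without OB_287. It also passed in a fit of the compared groups only (limma adjusted p = 0.0208) and by DESeq2, but not by edgeR (adjusted p = 0.0555). The BS difference passed without BS_296.

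Mobp and Opalin broke from the other myelin genes. Mobp has 5 annotated RefSeq transcripts and 2 rows here, so that its low values are not read as low expression, while Opalin has 1. Mobp, a small protein of compact myelin, had 0, 1.97 and 3.27 normalized reads in AG_1, AG_2 and AG_3. It had 342 in BS_287, 3.2 in BS_295 and 0 in BS_296, and 40.9, 77.1 and 7.61 in OB_257, OB_287 and OB_295. The highest value was in BS_287, the library with 0 reads of Gpr17 and Gjc3. Opalin had 0 reads in AG, 33.5, 2.13 and 0 in BS_287, BS_295 and BS_296, and 13.3, 36.2 and 3.26 in OB_257, OB_287 and OB_295. The same 3 libraries, BS_287, OB_287 and OB_257, were highest for both genes. Mobp passed in neither comparison with AG (limma adjusted p = 0.17 in OB and 0.394 in BS), and without BS_287 its BS difference turned from 2.28 to -0.19. It passed in OB without BS_287, in a fit of the compared groups only (limma adjusted p = 0.0264) and by DESeq2 (adjusted p = 0.0384). In BS DESeq2 also called it (adjusted p = 0.00469), at a difference of 6.10. Opalin passed in OB at a limma adjusted p of 0.0473 and not in BS (limma adjusted p = 0.194). By group means Opalin was at least 6.04-fold higher in OB than in AG. Its OB call ended in 12 of 21 alternatives, among them edgeR and the fits without AG_1, AG_2, AG_3, BS_295, OB_257 or OB_287, with adjusted p up to 0.132. Leaving out an AG library or BS_295 kept its OB difference at 3.71, so that only the error estimate changed.

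Single markers of neurons and astrocytes were highest in BS_287 within its group, and others were lowest there. Stmn2 had 96.4 normalized reads there, against 1.07 and 46.3 in BS_295 and BS_296, Rbfox3 13.4 against 0 and 0, and Gfap 91.4 against 6.4 and 45.3. Cntn2, an adhesion molecule of axons and myelin from the mature list, had 782 in BS_287 against 0 and 102. Gad1, the enzyme of GABA synthesis, was instead lowest there, at 5.87 against 175 and 61.1. The 7 neuron markers read summed to 401 to 2331 in BS, 737 to 2805 in OB and 60 to 76.9 in AG. Most of this sum in the tumours was Elavl3 (218 to 2193 in BS and 597 to 2681 in OB). Gad2 was instead highest in AG (50.9 to 59.1, at most 31.5 in BS and 2.85 in OB). The 7 astrocyte markers summed to 14430.2 to 27617 in BS, 6723 to 29704 in OB and 5746 to 6288 in AG. Most of this was Gja1 in AG, S100b in OB_257 (6616) and Slc1a3 in the other tumour libraries. Gja1 was highest in BS_287 within BS (2879 against 369 and 1231). Slc1a3 (11447 against 22694 and 25665), Aldoc (5.03 against 36.3 and 32.5) and S100b (5.87 against 87.5 and 639) were lowest in BS_287 within its group, as was the astrocyte sum. Their part in the Mobp and Opalin values was not tested.

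Aspa was the only gene of the set that was lower in OB than in AG. It had 567, 559 and 583 normalized reads in AG_1, AG_2 and AG_3, 0, 0 and 6.9 in BS_287, BS_295 and BS_296, and 251, 0.952 and 3.26 in OB_257, OB_287 and OB_295. Every tumour library was below AG, and OB_257 was the only one above 7. Aspa fell by 8.16 in BS (limma adjusted p = 0.0061) and by 5.48 in OB (limma adjusted p = 0.0334) on the log2 scale. The OB call ended by edgeR (adjusted p = 0.237), in a fit of the compared groups only, and without AG_1, AG_2, AG_3, OB_287 or OB_295. Leaving out an AG library hardly moved the difference (-5.49 to -5.46). The call held without OB_257, where the difference was -7.63.

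**Figure D2:**
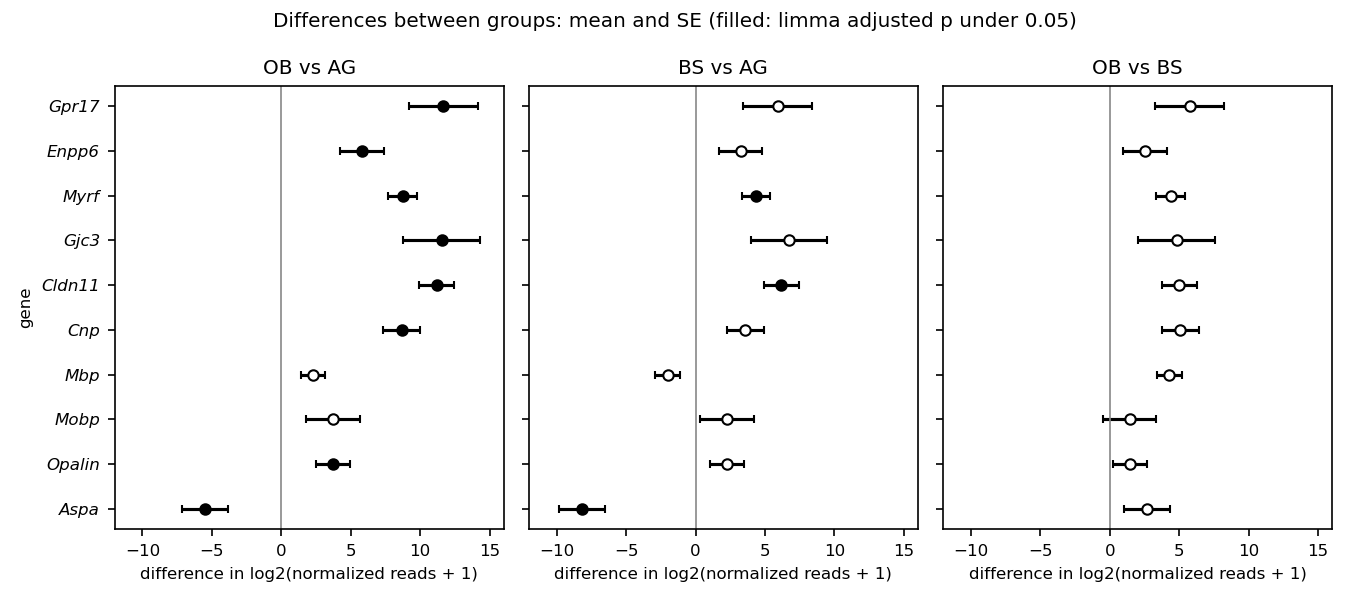
Difference between groups for each of the 10 genes in log2(normalized reads + 1), with its standard error, in OB against AG, BS against AG and OB against BS (3 libraries per group). Filled points passed limma at an adjusted p under 0.05: 8 in the first comparison, 3 in the second and 0 in the third.

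The promoters of 4 genes are shown so that 3 genes that rose in OB can be read beside the 1 that fell. Promoter sequence of 7 of the 10 genes was read from the RefSeq table of build GRCm38.p6, over the 250 bases before the start. Shown are Cldn11, Gjc3, Cnp and Aspa, 5′ to 3′ on the strand of the gene. Capitals mark matches, on either strand, to the SOX words ACAAAG and ACAATG, the E-box CANNTG bound by OLIG factors, the MYRF word CTGGCAC or the forkhead word TGTTTAC.
Cldn11 (chr3:31149670-31149919, plus strand): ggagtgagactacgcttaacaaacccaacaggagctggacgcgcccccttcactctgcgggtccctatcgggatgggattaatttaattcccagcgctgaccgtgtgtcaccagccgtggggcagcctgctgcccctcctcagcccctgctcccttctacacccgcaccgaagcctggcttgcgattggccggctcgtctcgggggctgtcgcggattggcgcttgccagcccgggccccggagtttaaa
Gjc3 (chr5:137963099-137963348, minus strand): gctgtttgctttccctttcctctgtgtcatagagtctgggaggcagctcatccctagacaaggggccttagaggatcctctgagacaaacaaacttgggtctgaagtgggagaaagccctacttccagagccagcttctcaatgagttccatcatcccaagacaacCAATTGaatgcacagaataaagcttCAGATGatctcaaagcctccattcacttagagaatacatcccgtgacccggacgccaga
Cnp (chr11:100574689-100574938, plus strand): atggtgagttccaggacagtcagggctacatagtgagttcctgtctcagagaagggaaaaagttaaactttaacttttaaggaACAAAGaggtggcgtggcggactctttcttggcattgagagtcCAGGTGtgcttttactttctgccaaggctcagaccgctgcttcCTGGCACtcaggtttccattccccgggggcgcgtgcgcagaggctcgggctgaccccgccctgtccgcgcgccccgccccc
Aspa (chr11:73324638-73324887, minus strand): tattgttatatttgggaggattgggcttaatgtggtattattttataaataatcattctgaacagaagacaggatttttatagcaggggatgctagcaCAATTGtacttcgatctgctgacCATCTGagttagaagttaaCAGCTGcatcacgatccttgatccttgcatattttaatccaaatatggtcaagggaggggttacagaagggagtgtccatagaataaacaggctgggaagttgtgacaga
The Cldn11 window held none of these words. Gjc3 had 2 E-boxes. Cnp had a SOX word from 167 to 162 bases before the start, an E-box from 124 to 119 and the MYRF word from 81 to 75, and no pair of matches in the 7 windows overlapped. Aspa had 3 E-boxes. Among the windows not shown, Mobp held 6 SOX words, Enpp6 1, and Opalin 1 SOX word and 1 E-box. Over the 7 windows, 4 held a SOX word (25.2% of all 32851 windows of this length), 4 an E-box (66.2%), 1 the MYRF word (4.19%) and 0 the forkhead word (3.17%). A match is a description of the letters only.

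OB and BS were then compared directly. By limma 0 of the 10 genes passed, and 0 of all genes did (0%). At an unadjusted p under 0.05 there were 5 of the 10 and 1019 of all genes, edgeR called 0 of the 10 and 0 of all genes, and DESeq2 called 4 of the 10 (Myrf, Cldn11, Cnp and Mbp) and 233 of all 10576 genes. For 5 genes, Myrf, Cldn11, Cnp, Mbp and Gpr17, every OB library was above every BS library, which held for 5.36% of all genes, and no member had OB wholly below BS (4.63% of all genes). For Gpr17 and Cnp the gap was narrow, from 2466 in BS_296 to 2471 in OB_287 and from 99.5 to 108 in the same libraries. The differences were 4.37 ± 1.03 for Myrf (limma adjusted p = 0.234), 5.001 ± 1.25 for Cldn11 (0.257), 5.08 ± 1.33 for Cnp (0.29), 4.27 ± 0.90 for Mbp (0.176) and 5.74 ± 2.47 for Gpr17 (0.511), all by limma. Without OB_287, Myrf (limma adjusted p = 0.0486) and Cldn11 (limma adjusted p = 0.0355) passed, among 96 of all genes.

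The order of the tumour libraries differed between genes. OB_257 was the highest tumour library for 7 of the 10 genes, and OB_295 was highest for Gpr17 and second for 6 others. BS_287 had 0 reads for 3 genes, Gpr17, Gjc3 and Aspa. From the lowest of the 6 tumour libraries to the highest, site difference included, Myrf spanned 163-fold, Cldn11 278-fold, Cnp 624-fold and the Mbp row 109-fold. The 5 precursor genes tested were mixed. Cspg4, the NG2 proteoglycan, Pdgfra, a growth factor receptor, and C1ql1 were lowest in OB_257 (98.4, 1.11 and 252). For Pdgfra, BS_287 was near 0 as well (2.52). Ptprz1, a receptor phosphatase, and Cacng4 were lowest in BS_287 (222 and 205). Hes5, a Notch target from the list of inhibitors, was lowest in OB_257 (34.3), as Olig1 and Olig2 were.

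**Figure D3:**
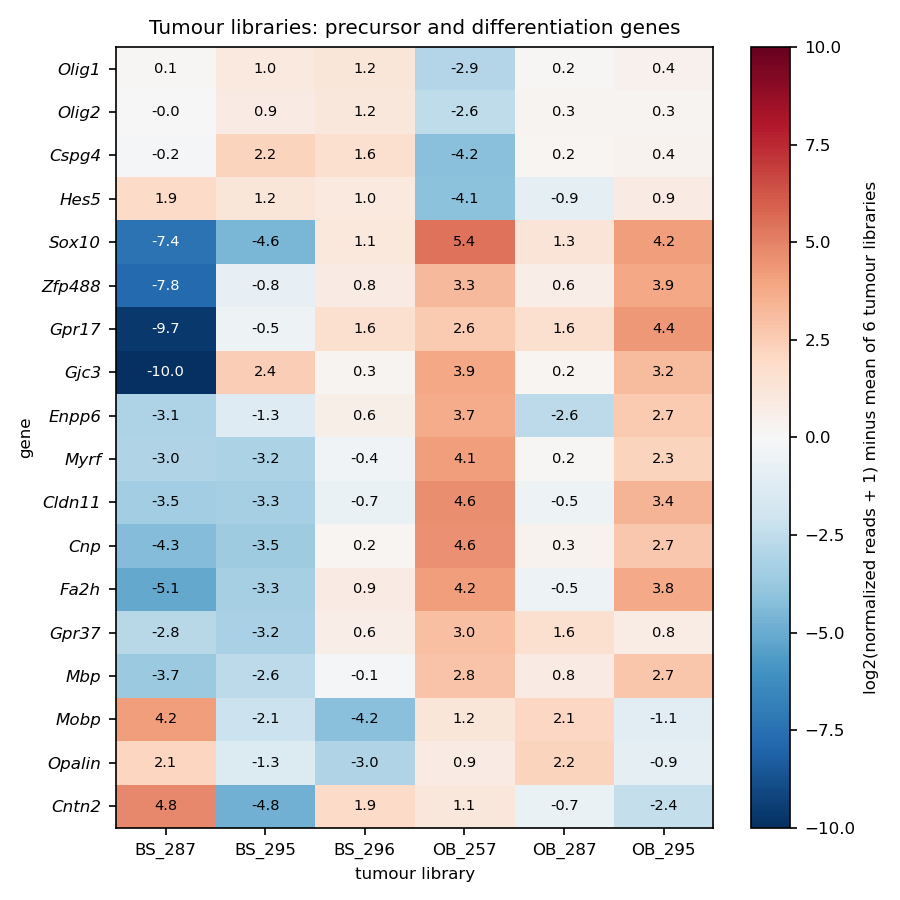
Level of each gene in each tumour library as log2(normalized reads + 1) minus the gene's mean over the 6 tumour libraries (red above, blue below, with the value printed). Sox10, Myrf, Cldn11 and Cnp are highest in OB_257, where Olig1, Olig2, Cspg4 and Hes5 are lowest, and Mobp and Cntn2 are highest in BS_287.

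OB_257 also carried genes that Schwann cells, the myelinating glia of peripheral nerve, share with oligodendrocytes. Erbb3 had 2546 normalized reads there against 70.4 and 1365 in OB_287 and OB_295, and Pmp2, a fatty acid binding protein of peripheral myelin, 839 against 0.952 and 7.61. The 9 Schwann cell markers read summed to 395 to 3712 in OB, 203 to 1722 in BS and 144 to 179 in AG. Foxd3, a neural crest factor, was at 0 in OB_257 and Prx, a structural protein of peripheral myelin, at 14.4, against 10 to 18.5 in AG. Dhh, Cdh19, Ngfr and Prx were also highest in OB_257 within OB, though Ngfr (12.2) was below AG (22.5 to 26.6). Egr2, Pou3f1 and Foxd3 were instead lowest there. Egr2 had 14.4 against 32.4 and 31.5 in OB_287 and OB_295 and 88.7 to 111 in AG. Pou3f1 had 17.7 against 155 and 254, with at most 0.986 in AG. Their part in the results was not tested. The 4 endothelium markers summed to 921 to 1035 in AG, nearly all Flt1, 28.6 to 242 in BS and 11.1 to 212 in OB, with Cdh5 and Cldn5 at 0 in AG and at most 10.5 elsewhere.

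Other genes of the lineage were read from lists that leave out the 10 genes, and their counts stand against 16% of all genes called higher and 19% lower in OB, and 15.6% and 19.5% in BS. Among regulators, 8 of 10 tested rose in OB and 0 fell, and 5 rose in BS (8 without BS_287). Those called in both were Olig1, Olig2, Sox8, Zfp536 and Chd7, while Sox10, Zfp488 and Nkx2-2 passed in OB alone. Nkx2-2, a homeodomain factor, had 210 to 289 in AG and 882 to 2255 in OB. That it passed in OB and not in BS is no test of a difference between the tumour sites, which none of these genes passed by limma.

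Of the list of newly formed oligodendrocytes, 3 of 8 tested genes rose in OB and 1 fell (3 and 2 without OB_257), and 3 rose and 2 fell in BS (3 and 1 without BS_287). Bcas1, a marker of early myelinating cells, had 0 reads in AG, 41.9, 205 and 208 in the BS libraries and 1061, 157 and 700 in OB_257, OB_287 and OB_295. The GTPase gene Rnd2 and the kinase gene Fyn rose in both groups, with Rnd2 at 313 to 334 in AG and 1629 to 9309 in OB. Rras2, a RAS-related GTPase, fell in both, its AG libraries holding 2942 to 3121, its BS libraries 112 to 371 and its OB libraries 195 to 560.4. Cnksr3 fell in BS by 1.47.

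The list of myelin and mature oligodendrocyte genes was divided. Of 16 tested, 8 rose and 2 fell in OB (6 and 3 without OB_257), with a median difference of 2.47, and 3 rose and 2 fell in BS, with a median of 1.76. In BS the 5 called of 16 are a share near the 35.1% of all genes. Gpr37, a receptor of differentiating oligodendrocytes, had 0 reads in AG, 78.8, 59.7 and 865 in the BS libraries and 4431, 1745 and 953 in the OB libraries. Tppp, a tubulin-binding protein, rose by 7.47 in OB and by 5.48 in BS, and transferrin (Trf) by 4.06 and 3.77. Nfasc, the adhesion molecule of the node region, rose by 4.74 in OB, unevenly. It had 0 reads in AG and 183, 3.81 and 20.6 normalized reads in OB_257, OB_287 and OB_295. OB_287 lay within the BS range (0.985 to 10.9). Cd9, a tetraspanin that many cell types carry, and Anln, which also acts in cytokinesis, fell in both groups. Some late myelin genes did not pass the filter on low values. Mog had 0.986 to 3.27 normalized reads in AG, 21.8 in BS_287, 49.7 in OB_257 and at most 8.87 in the other tumour libraries, Mag 7.74 in OB_257 and 0 in the other 8 libraries, and Ermn at most 27.6, in OB_257. Mag has 8 annotated transcripts, so that its low values are not read as low expression, while Mog has 1.

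Of myelin lipid genes only 3 passed the filter. Fa2h, which makes hydroxylated myelin lipids, rose in OB by 7.49, its OB libraries (OB_257, OB_287, OB_295) holding 1140, 42.8 and 878 normalized reads and AG at most 1.09. OB_257 and OB_295 were again highest. Gal3st1, which makes sulfatide, had 0 reads in AG and 90.6, 4.8 and 57.6 in those OB libraries, and did not pass the filter. Elovl7, a fatty acid elongase, fell in BS by 3.44, and its OB libraries lay on both sides of AG, with 3508, 105 and 1451 against 317 to 364. Degs1, a ceramide desaturase, fell by 1.79 in OB and by 1.45 in BS. Of 6 tested inhibitors of differentiation, Hes5 and Sox6 rose in both groups and Sox5 in BS, while Id2, Id4 and Hes1 passed in neither. Of 5 precursor genes tested, 4 rose in each group and Pdgfra did not pass in either. Pdgfra has 5 annotated transcripts and 2 rows here, so that its low values are not read as low expression.

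**Figure D4:**
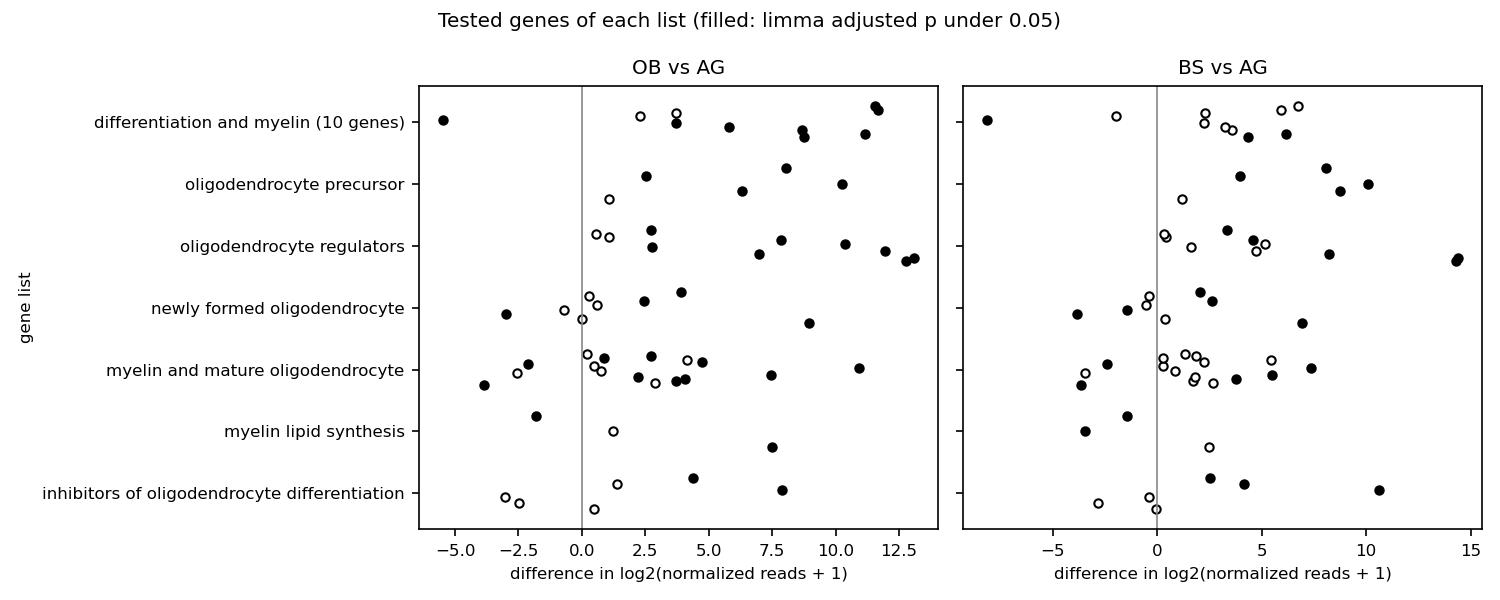
Difference from AG in log2(normalized reads + 1) of each tested gene of each list, in OB (left) and BS (right). Each point is 1 gene, filled where limma passed at an adjusted p under 0.05, and the points of the regulators lie mostly to the right of 0 while those of the mature list lie on both sides.

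Genes outside the 10 were ranked by how like their profile over the 9 libraries was to that of a member. The measure was the root mean square difference of centred log2 values, and its median over all genes was 3.81 for Myrf. Nearest to Myrf were Myrip (0.818), Bfsp2 (0.922), Lrrc17 (1.02), Capn6 (1.06) and Col9a3 (1.08), and among the 10 genes Cnp was nearer still (0.609). Myrip, for example, had 0 reads in AG, 15.1, 45.9 and 63.1 in the BS libraries and 1301, 54.2 and 358 in the OB libraries. Nearest to Gpr17 were Zfp488 (1.02), Luzp2 (1.48), the kainate receptor gene Grik3 (1.54), Omg, which encodes oligodendrocyte myelin glycoprotein (1.68), and Dtx1 (1.81), against a median of 5.62. All 5 had at most 1.68 normalized reads in BS_287, where Gpr17 had 0, which follows largely from their choice by likeness to Gpr17. Nearest to Cldn11 were Moxd1 (1.25), Gpr37 (1.36), Myrip (1.37), Vat1l (1.44) and Sh3tc2 (1.53), against a median of 4.83. Among the 10 genes, Myrf (1.12) was nearer to Cldn11 than any of these, and Cnp was at 1.34. These distances describe 9 libraries and carry no test.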

How the data were processed

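The authors deposited 1 table of normalized read counts (signal values) for 16260 RefSeq transcripts in 9 libraries. Build mm9 and the tools DESeq2 1.20.0, Subread 1.6.2 with featureCounts, HISAT2 2.1.0 and bcl2fastq 1.8.4 are listed, per the submitters' processing notes, with no role or order. The sources used here do not give the annotation, the strand setting or how shared reads were counted. Multiplying each deposited signal value by its library's size factor returned reads, and 100% of values came out whole within 0.05 reads. Transcripts were named from RefSeq (16202) or GENCODE (41), 17 without a name were left out, and rows of a symbol were added.

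limma 3.58.1 (R 4.3.3) was fitted on log2(value + 1) with 3 group means over 9 libraries, a variance trend, two-sided tests and Benjamini-Hochberg adjustment over 10576 genes. Alternatives were other pseudocounts, filters, scalings and variance trends, left-out libraries, and count tests on the whole reads (DESeq2 1.42.0, edgeR 4.0.16), of which edgeR called 3724 genes in OB against AG and 3679 in BS against AG. Folds against 0 reads divided the group mean by a floor of 3 reads per library, so that single libraries can lie below the bound. Ratios against 1 to 3 reads used an exact (Clopper-Pearson) 95% interval. Both cover counting error only. The genes named were the 10 genes, called genes of each list and the 5 nearest profiles of 3 members. Genes and lists were chosen with earlier results of these data known. Figures were drawn with matplotlib 3.10.9. Some genes of the lists are not reported here.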

Additional observations from a re-analysis of the deposited data

How the results depend on the processing

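Over all alternatives Myrf, Cldn11, Cnp, Gpr17 and Gjc3 kept their OB calls against AG, and Myrf and Cldn11 their BS calls. Aspa kept its BS call wherever an adjusted p was given, DESeq2 giving none. Of the single-gene values, 591 kept direction and side of the threshold, 3 (Aspa by DESeq2) had no adjusted p, 24 lost a call, 37 gained one and 6 changed sign. The 6 were all Mobp: in BS against AG it was -0.19 without BS_287, alone or together with OB_257, and in OB against BS -1.48 by edgeR, -1.47 by DESeq2, -0.32 without BS_296 and -0.55 with the number as a block. Leaving out 1 library at a time, Mobp ranged from -0.19 to 4.03 in BS against AG and from -0.32 to 3.89 in OB against BS. The same fits gave 5 to 10 of the 10 genes called in OB against AG (8 with all), 3 to 6 in BS against AG (3 with all) and 0 to 2 in OB against BS, and 2502 to 4164, 2427 to 4353 and 0 to 96 of all genes. In BS against AG edgeR called 6 of the 10 genes (3679 of all genes) and DESeq2 8 (4270). The fit without BS_287 and OB_257 together called 7 (4740 of all genes). In OB against BS DESeq2 called 4 of the 10 genes and 233 of all genes. Of all genes, a pseudocount of 0.5 called 4 there, one of 5 called 6, quantile normalization 1 and no trend 2. Leaving out BS_287 and OB_257 together called 69 of all genes. These fits called 0 of the 10 genes. The causes were not tested.

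Upper-quartile rescaling moved the median difference of all genes in OB against AG from -0.01 to 0.13 and in BS from -0.03 to 0.15. BS_287 and OB_287 share a number, as do BS_295 and OB_295, and the labels leave its meaning unstated. Deviations from the group means correlated at 0.069 in the first pair and 0.299 in the second. In pairs that share no number they correlated at -0.412 to 0.291. Deviations from the mean of 3 libraries sum to 0, so these values depend on each other and cannot show whether the number marks pairs. With the number as a replicate block, in a fit of BS and OB only, 0 of the 10 genes and 0 of all genes were called. Enpp6, Opalin, Mobp and Aspa rest on few reads in several libraries, and depth limits what can be read from them. With a filter of 50 normalized reads, Enpp6, Opalin and Mobp dropped out and had no value.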
